A study of Mus musculus with 4 samples.

Results

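Retinoic acid handling was described through 9 genes in mouse fibroblasts. They encode the cellular retinoic acid binding proteins Crabp1 and Crabp2, the nuclear retinoic acid receptors Rara, Rarb and Rarg, the retinaldehyde dehydrogenases Aldh1a1, Aldh1a2 and Aldh1a3, and the retinoic acid hydroxylase Cyp26b1. All 9 were found, each with 1 row of the deposited table, among 22180 genes with a single symbol. The group was named for Crabp1, which was picked from earlier results of these data because of its difference between the groups, and the other 8 genes were added for their roles. Where a gene had several rows, its row was chosen by the mean log2 intensity over the 4 arrays. The difference of Crabp1 is therefore given as a description, with no test.

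RNA of fibroblasts was hybridised to Affymetrix Mouse Gene 2.0 ST arrays, 2 for wild-type mice (WT) and 2 for mice labelled Zip13KO. Zip13, encoded by Slc39a13, is a zinc transporter, and the study asked how its loss in fibroblasts bears on the Golgi and the region around the nucleus. The sources used here do not give the strain, age, tissue of origin, culture conditions or design of the altered allele. The replicates are called biological, but whether they came from separate animals or cultures is not stated. The p-values therefore rest on spread between arrays that may be technical. With 2 arrays in each group, an exact permutation test cannot give a two-sided p below 0.333, and the tests below come from a model fitted to all genes. That model draws the spread of each gene toward that of genes of like intensity, with 2 residual and 15.1 prior degrees of freedom. The spread behind a p-value or interval is thus mostly borrowed from other genes.

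Median intensity per array lay between 94.5 and 96.1 over 41345 rows, and the correlation between arrays was 0.994 within each group and 0.983 to 0.985 between them. Slc39a13 differed by 0.04 log2 units (limma adjusted p = 0.820). Where its probes lie with respect to the mutation is not stated, so the value is no check on the genotypes. Of 10 fibroblast markers, 9 were brighter than the array median in at least 2 of the 4 arrays, while Lum was dimmer in all 4. The summed intensity of these markers was 19033 to 19786 in WT and 14706 to 15495 in Zip13KO, a sum that rests on a few bright rows. In limma 1 of the 10 rose and 5 fell. Pdgfra rose by 1.04 log2 units (adjusted p = 2.46e-08), while Pdgfrb fell by 0.92, Col1a1 by 0.89 and Fn1 by 0.67 (adjusted p = 2.13e-07, 2.79e-08 and 5.66e-07). Mesothelial markers summed to 686 to 688 in WT and 1858 to 1905 in Zip13KO. Of their 5 genes, Msln alone passed the test, and it rose by 2.97 log2 units. Among markers of epithelium, endothelium, leukocytes, melanocytes, Schwann cells, skeletal muscle and adipocytes, the leukocyte genes Cd68 (0.40, adjusted p = 0.0302) and Csf1r (-0.26, adjusted p = 0.0390) passed in limma, though not in the fit over all rows (0.310 and 0.184) or without WT replicate 2 for Cd68 (0.562) and WT replicate 1 for Csf1r (0.212). Whether these shifts in markers have a part in the results below was not tested, and in bulk RNA a change in the share of a cell type and a change of RNA per cell cannot be told apart.

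Cells make retinoic acid from vitamin A. Retinol is oxidised reversibly to retinaldehyde, and the Aldh1a enzymes convert retinaldehyde to retinoic acid in a step that is not reversed. In the cytosol, Crabp2 delivers retinoic acid to the nuclear receptors, while Crabp1 binds it and has been linked to its storage and breakdown. Cyp26 enzymes hydroxylate and so inactivate it. In the nucleus a retinoic acid receptor pairs with a retinoid X receptor on DNA at direct repeats of a short hexamer. Rarb and Cyp26a1 are known targets of this pathway through such repeats, and they are often read as measures of its activity. In skin and in developing mesenchyme, Crabp1 marks particular fibroblast populations.

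The promoter sequences are shown because the gene that differed and a known target of the receptors have windows of different make-up. RefSeq windows of assembly GRCm38.p6 run from 250 bases before to 50 bases after a start site, and 7 of the 9 genes had at least 1, with 12 windows in all. The window of Crabp1 lies at chr9:54764498-54764797 on the plus strand, and capitals mark each GGGCGG, the core of a GC box, on either strand.
Crabp1: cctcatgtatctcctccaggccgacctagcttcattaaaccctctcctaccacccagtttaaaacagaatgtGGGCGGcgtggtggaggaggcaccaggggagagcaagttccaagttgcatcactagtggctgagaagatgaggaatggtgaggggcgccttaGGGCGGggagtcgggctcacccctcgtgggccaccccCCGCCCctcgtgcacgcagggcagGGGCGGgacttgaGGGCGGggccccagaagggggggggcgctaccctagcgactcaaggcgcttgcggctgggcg
It held 5 such cores, and 2.71% of all 32851 windows held at least as many. The window was also rich in G and C, at 65.0% against a median of 52.7%, and 18.3% of windows were at least as rich. At least 1 core was found in 35.7% of windows. The search for the receptor hexamer took AGGTCA or AGTTCA or GGGTCA or GGTTCA on both strands. It found no match in the Crabp1 window and at least 1 match in 43.7% of all windows. The absence says only that these letters are not in this window. The window of Cyp26b1 held 3 cores and no hexamer, and the Rara window at chr11:98937446-98937745 held 4 cores and no hexamer. Neither gene passed the test below, so this make-up was not particular to Crabp1.

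The window of Rarb lies at chr14:16575427-16575726 on the minus strand, and capitals mark a direct repeat of the hexamer with a spacer of 5 bases, known as DR5.
Rarb: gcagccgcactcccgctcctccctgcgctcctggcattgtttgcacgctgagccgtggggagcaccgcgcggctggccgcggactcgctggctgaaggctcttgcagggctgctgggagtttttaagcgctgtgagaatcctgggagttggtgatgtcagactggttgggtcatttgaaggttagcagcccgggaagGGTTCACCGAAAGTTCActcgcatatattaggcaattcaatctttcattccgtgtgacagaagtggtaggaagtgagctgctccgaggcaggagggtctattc
The repeat ran from 53 to 37 bases before the start site. Such a repeat was found in 0.0974% of all windows and in no other window of the 9 genes. Cyp26a1, the close relative of Cyp26b1 and another target, had one on the opposite strand of its window at chr19:37697558-37697857, from 32 to 16 bases before the start. With the 2 hexamers in capitals and the spacer in lower case, the repeats read as follows.
Rarb: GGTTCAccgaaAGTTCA
Cyp26a1: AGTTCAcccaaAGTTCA

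Of the 9 genes, Crabp1 was the one with a large difference between the groups, and the other 8 differed by 0.13 log2 units or less. The intensity of Crabp1 was 617 and 569.8 on the WT arrays and 3328 and 3372 on the Zip13KO arrays. Both Zip13KO arrays were far above both WT arrays. On the log2 scale the means were 9.21 ± 0.08 and 11.71 ± 0.01 (SD, n = 2 each). They differed by 2.50, with a 95% interval from 2.36 to 2.64. This is 5.65-fold, with an interval from 5.12 to 6.23. Neither interval allows for the choice of Crabp1 by its difference, and both only describe these arrays. The arrays of a group were at most 0.114 log2 units apart for this gene. Crabp1 ranked 7 among the 22180 genes by its difference, which is the measure that drew attention to it.

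**Figure D1:**
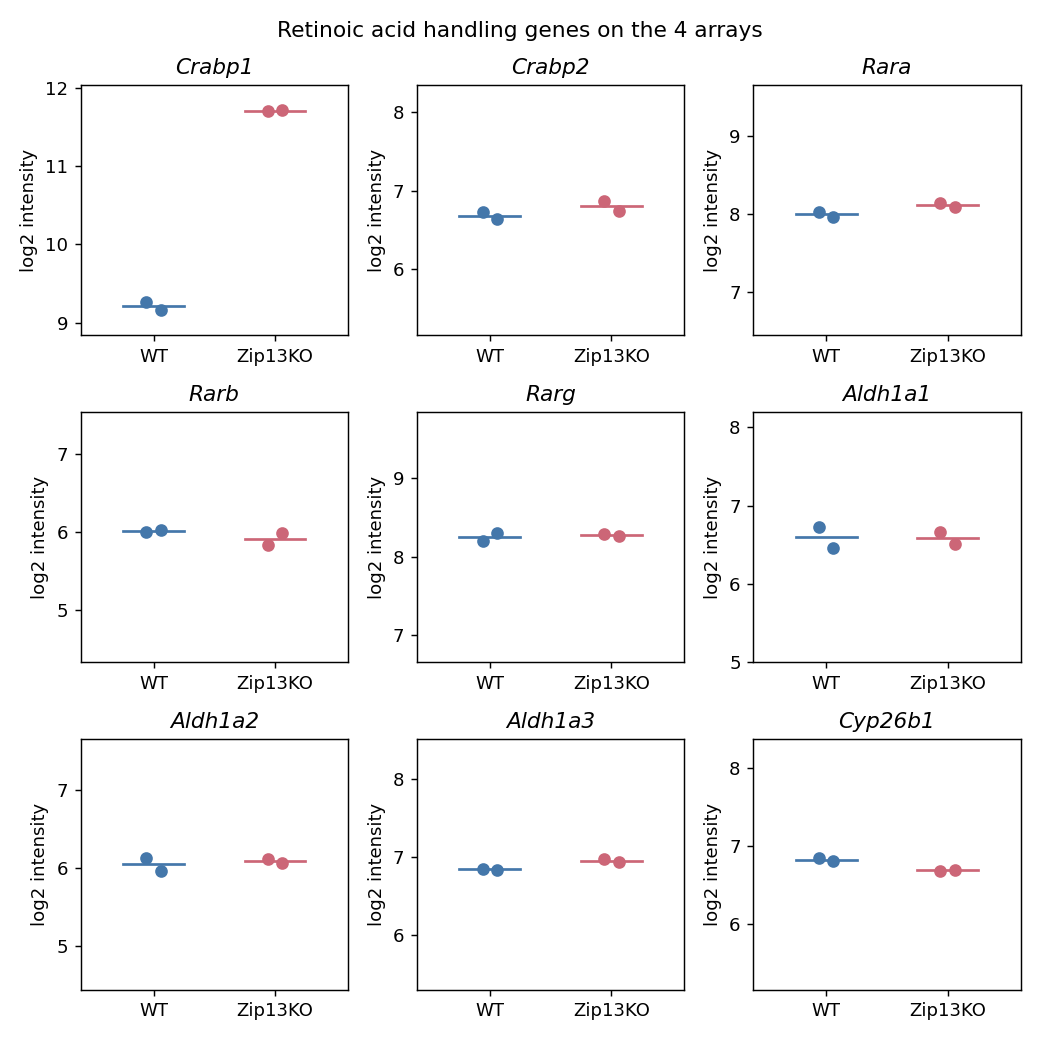
Log2 intensity of the 9 genes on each array, with WT in blue and Zip13KO in red, points for the 2 arrays of a group and a line at their mean. Every panel spans the same number of log2 units, so that the step of 2.50 in Crabp1 can be set against the other 8 genes, whose differences ran from -0.13 to 0.12.

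Crabp2, the paralog that carries retinoic acid to the receptors, had intensities of 106 and 99.4 in WT and 117 and 107 in Zip13KO. The 2 groups did not overlap but nearly touched. The difference was 0.12 log2 units (SE 0.08, limma adjusted p = 0.419), and its 95% interval ended at 0.30.

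The retinaldehyde dehydrogenases, which make retinoic acid, did not pass the test. Aldh1a1 had intensities of 106 and 88.2 in WT and 101 and 91.4 in Zip13KO, and both Zip13KO arrays lay between the WT arrays. Its gap between the WT arrays, 0.262 log2 units, was the widest within a group among the 9 genes. Aldh1a2 had 69.8 and 62.7 in WT and 69.5 and 67.2 in Zip13KO, again between the WT arrays, and was below the array median on all 4 arrays. Aldh1a3 had 115 and 114.7 in WT and 126 and 122 in Zip13KO, and its groups did not overlap. The differences were -0.01, 0.05 and 0.11 log2 units for Aldh1a1, Aldh1a2 and Aldh1a3 (limma adjusted p = 0.981, 0.812 and 0.469). The direction of Aldh1a1 and of Aldh1a2 turned when single arrays were left out.

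Cyp26b1, which removes retinoic acid, had intensities of 115 and 112 in WT and 103 and 103 in Zip13KO. Both Zip13KO arrays were below both WT arrays. Its difference of -0.13 log2 units (SE 0.08, 95% interval -0.30 to 0.03) was the lowest of the 9 and did not pass (limma adjusted p = 0.330).

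The receptors did not pass either. Rara, which is found in most tissues, had intensities of 261 and 249 in WT and 281 and 271 in Zip13KO, with no overlap and a difference of 0.12 log2 units (limma adjusted p = 0.400). Rarg, a receptor of skin and skeletal tissue, had 293 and 315 in WT and 313 and 307 in Zip13KO, and its Zip13KO arrays lay between the WT arrays. Its difference was 0.03 (limma adjusted p = 0.885). Rarb had 64.0 and 65.2 in WT and 57.3 and 63.6 in Zip13KO, below the array median on all 4 arrays. One Zip13KO array was close to WT and the other was lower, and the groups differed by -0.10 (95% interval -0.27 to 0.07; adjusted p = 0.536 in limma). The receptor gene that carries the DR5 repeat printed above was thus not among the genes that passed, and its upper bound allowed a rise of at most 0.07 log2 units. Values this dim may lie near background, where array summaries compress differences, and the table holds no detection call.

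**Figure D2:**
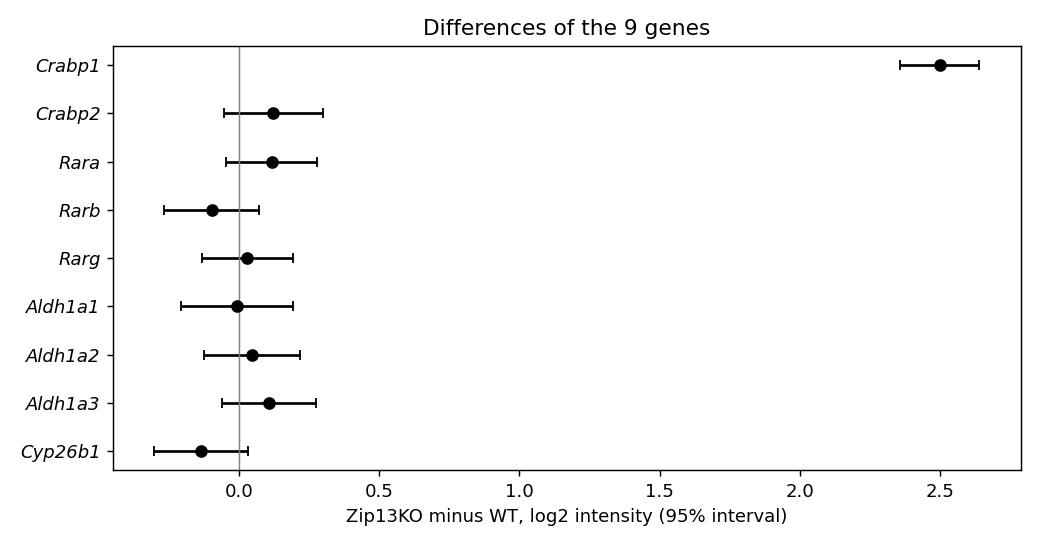
Difference between Zip13KO and WT in log2 intensity for each of the 9 genes, with points for the difference and bars for the 95% interval of the limma fit over all genes. The interval of Crabp1 runs from 2.36 to 2.64, while those of the other 8 include 0 and stay between -0.30 and 0.30. That of Crabp1 does not allow for its choice by this difference.

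Of the 8 genes other than Crabp1, none passed adjusted p under 0.05 in limma and none had an unadjusted p under 0.05. Over all genes 17.1% passed, 7.00% higher and 10.1% lower. The groups did not overlap for 5 of the 8, with Crabp2, Rara and Aldh1a3 higher and Rarb and Cyp26b1 lower. Over all genes 51.5% did not overlap, 24.1% higher and 27.3% lower, so this count is near the background. The median size of the 8 differences, regardless of sign, was 0.10 log2 units, against 0.09 over all genes. The 95% intervals allowed at most a 1.23-fold rise and a 1.23-fold fall in any of the 8. Missing the threshold does not show that these genes were equal in the groups. The intervals bound how much the array values differed, given a spread between arrays that is mostly borrowed from other genes. Crabp2, Aldh1a1, Aldh1a3 and Cyp26b1 lay near the array median, at intensities like those of the endothelial marker Pecam1 (101 to 112). For these rows, as for Rarb and Aldh1a2, background may hide a larger difference in RNA.

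The wider pathway held 71 listed genes besides the 9, of which 67 were measured. In limma 9 of them rose and 3 fell, which is 17.9% against 17.1% of all genes, and the median difference was 0.01 log2 units. The count fell to 6 in a fit, with its adjustment, over all rows, including those without a gene name.

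Of 26 measured enzymes listed for oxidation and reduction of retinol and retinaldehyde, 5 rose and 1 fell in limma. This is 23.1% of the list against 17.1% of all genes. The differences were positive for 13 and negative for 13, with a median of 0.01 log2 units. Dhrs9, a short-chain dehydrogenase able to oxidise retinol, had log2 intensities of 6.36 and 6.38 in WT and 7.81 and 7.80 in Zip13KO. It rose 2.70-fold (limma adjusted p = 2.67e-10), the only change above 2-fold in the list. Both WT arrays were below the array median for Dhrs9, at 82.4 and 83.6, so the fold may be set against background. Adh7, an alcohol dehydrogenase that acts on retinol, rose by 0.47 log2 units (SE 0.07, limma adjusted p = 1.75e-04). Dhrs3, which reduces retinaldehyde back to retinol and is itself induced by retinoic acid, rose by 0.37 (adjusted p = 0.00318, and 0.0651 in the fit over all rows), and it too was below the median on both WT arrays. Rdh11, another retinaldehyde reductase, fell by 0.33 (adjusted p = 0.00346). Rdh10, the main enzyme that makes retinaldehyde for retinoic acid in the embryo, rose by 0.27 (adjusted p = 0.0274), and Akr1b10, of the aldo-keto reductases, by 0.30 (adjusted p = 0.0118). Both are named here after their values were seen. Neither passed in the fit over all rows (adjusted p = 0.154 and 0.0837), without WT replicate 1 (0.303 and 0.0943) or without Zip13KO replicate 2 (0.0784 and 0.0527).

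Of 14 measured genes of retinol uptake, binding and storage, Lpl alone passed, which is 7.14% against 17.1% of all genes. Lpl, the lipase that frees lipids and retinyl esters from circulating particles, rose by 0.92 log2 units (SE 0.09, limma adjusted p = 8.97e-07). Its second, dimmer row differed by 0.13. Of 6 genes of retinoic acid breakdown, 1 passed (16.7%, against 17.1% of all genes). Cyp2s1 rose by 0.27 (limma adjusted p = 0.0330) and the other 5 did not pass. The call of Cyp2s1 was lost in the fit over all rows (adjusted p = 0.163), without WT replicate 2 (0.261) and without Zip13KO replicate 2 (0.143). Cyp26a1, described for the repeat printed above, had intensities of 65.2 and 61.4 in WT and 59.9 and 61.0 in Zip13KO. It differed by -0.07 log2 units (95% interval -0.23 to 0.10; adjusted p = 0.701 in limma).

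Fabp5 fell. It carries retinoic acid to another nuclear receptor, Ppard, and belongs to the same family of small lipid carriers as Crabp1. Its log2 intensities were 10.24 and 10.18 in WT and 9.11 and 9.01 in Zip13KO. Both Zip13KO arrays were more than a log2 unit below both WT arrays. The difference was -1.15 log2 units (SE 0.07, limma adjusted p = 1.35e-09). The gene had 4 rows, which differed by -0.93 to -1.17. Fabp5 has near-identical copies in the mouse genome, so its rows may share signal with them. Fabp5 was the only 1 of 5 measured genes to pass in its list of carriers and receptors (20%, against 17.1% of all genes). The retinoid X receptors, described for their role as partners, were among the others. Rxra differed by 0.02, Rxrb by -0.10 and Rxrg by -0.12 log2 units (limma adjusted p = 0.922, 0.524 and 0.411).

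Of 16 measured corepressors and coactivators of nuclear receptors, 2 rose and 1 fell, which is 18.8% of the list against 17.1% of all genes. The coactivator Ncoa3 rose by 0.49 log2 units (limma adjusted p = 1.40e-04). Tbl1xr1, of the corepressor complex, rose by 0.32 (adjusted p = 0.00453, and 0.0558 in the fit over all rows). Nrip1, a corepressor that retinoic acid is known to induce, fell by 0.28 (adjusted p = 0.0183). It did not pass in the fit over all rows (adjusted p = 0.108), without WT replicate 2 (0.146) or without Zip13KO replicate 1 (0.101).

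**Figure D3:**
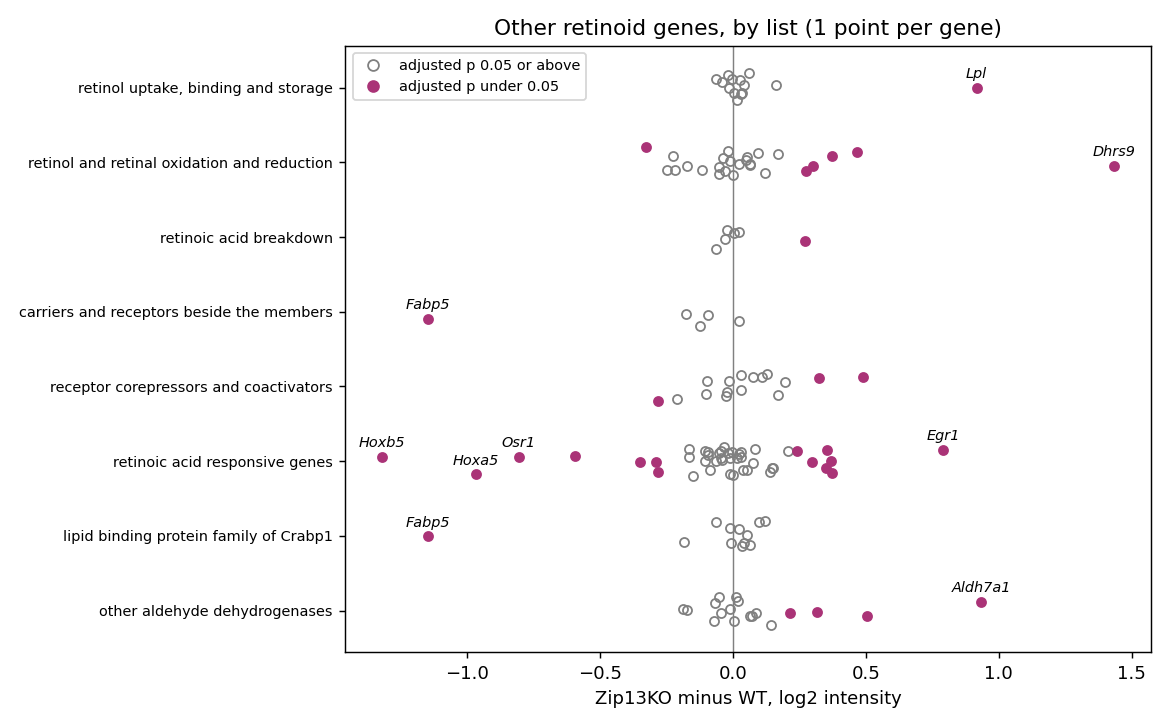
Difference between Zip13KO and WT in log2 intensity for the other measured genes, with lists on the vertical axis. The lists include the lipid carrier family of Crabp1 and other aldehyde dehydrogenases, not all of which act on retinoids. Each gene has 1 point in every list that holds it, and filled points mark adjusted p under 0.05 in limma. Most points lie near 0, and genes beyond 0.7 on either side are named, with Dhrs9 at 1.43, Hoxb5 at -1.32 and Fabp5, which stands in 2 lists, at -1.15.

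Genes known to respond to retinoic acid changed in both directions. Of 45 measured, 7 rose and 7 fell in limma, which is 31.1% of the list against 17.1% of all genes. Their median difference was -0.01 log2 units. The list was brighter than the background, with 36 of the 45 above the array median in at least 2 arrays, against 13819 of all 22180 genes. Among genes that passed this filter, limma called 13 of the 36 responsive genes and 3978 of the 13819 genes in all. The share rose more for all genes than for the list, so the gap between them was narrower. Whether brightness has a part in the share of 31.1% was not tested. The homeobox genes Hoxb5 and Hoxa5, position genes of the trunk, fell by 1.32 and 0.97 log2 units (limma adjusted p = 8.33e-10 and 1.24e-07). The second row of Hoxb5 differed by -0.48. Osr1, a mesenchymal transcription factor, fell by 0.81 (adjusted p = 2.37e-07). Egr1, an immediate early transcription factor, rose by 0.79 (adjusted p = 2.35e-07). Many of these genes answer to other signals too, and the list was not drawn up in fibroblasts. Dhrs3 and Nrip1, both called, are counted here and in the wider pathway. The count of 14 was 7 in the fit over all rows and 9 without WT replicate 2.

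Genes with the pattern most like that of Crabp1 were found by the root mean square distance over the 4 arrays, after each gene's log2 values had been centred on their mean. The 5 nearest protein-coding genes were Ptprq, a receptor phosphatase, at 0.0462 log2 units, Lgals3bp, a secreted galectin ligand, at 0.0814, the ion exchanger Slc24a3 at 0.127, the carbonic anhydrase Car12 at 0.132 and the cytokine Il33 at 0.167. The second, dimmer row of Lgals3bp differed by 0.84 log2 units, against 2.35 for the row used. For Ptprq, Slc24a3, Car12 and Il33 both WT arrays were below the array median. With 2 groups of 2 arrays, likeness of this kind is set almost wholly by the size of the group difference. All 5 are known from earlier results to be among the genes that rose most.

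**Figure D4:**
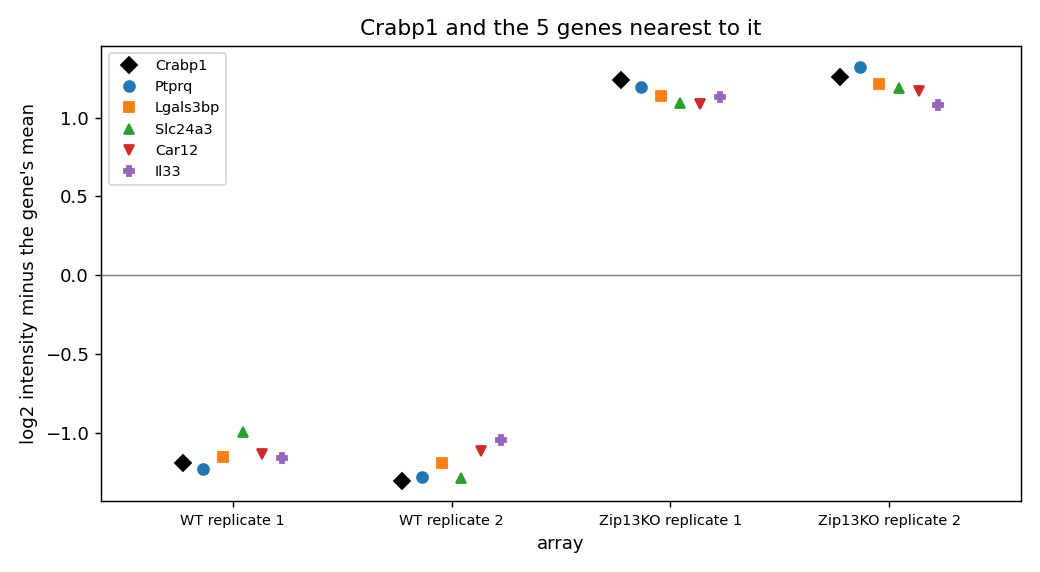
Log2 intensity of Crabp1 and its 5 nearest genes on each of the 4 arrays, after subtraction of each gene's mean. All 6 genes are below 0 on both WT arrays and above 0 on both Zip13KO arrays, by nearly the same amount.

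The neighbours of Crabp1 in the RefSeq gene table were looked at on both sides. Dnaja4 and Wdr61 before it and Ireb2 after it did not pass, at -0.19, 0.18 and -0.01 log2 units (limma adjusted p = 0.143, 0.0875 and 0.948). Wdr61 passed after a further quantile normalization, at 0.23 (adjusted p = 0.0145), and with crossed replicate numbers as a block (adjusted p = 0.0125). Hykk, which encodes hydroxylysine kinase and follows Ireb2, had intensities of 137 and 180.3 in WT and 80.2 and 85.5 in Zip13KO. It fell by 0.92 log2 units (SE 0.11, limma adjusted p = 4.03e-06), with an uneven pair of WT arrays and both Zip13KO arrays below the array median.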

How the data were processed

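Total RNA was measured by the authors on 4 single-colour Affymetrix arrays. The deposited table holds intensity, linear in scale. Per the submitters' processing notes the authors used RMA in Affymetrix Expression Console, and neither versions nor the annotation are given in the sources used here. As RMA evens out the distributions of the arrays, it would hide a shift common to most genes.

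Log2 was taken with no pseudocount. Of 23521 rows with 1 symbol, the brightest per gene was kept. Zip13KO was compared with WT in limma 3.58.1 under R 4.3.3 (lmFit, eBayes with trend, two-sided) without a filter. P-values were adjusted by Benjamini-Hochberg over 22180 genes, and 0.05 was the threshold. Lists were described by counts and medians. Listed genes without a row of their own were not analysed here. The fit of Zip13KO against WT was first tested on simulated data with the means and the moderated spread of these 22180 genes. The noise was normal and independent between arrays, which may be milder than real noise. All 50 genes given each of the differences 0.5, 1, 2 and -1 log2 units were recovered, with 13 false calls among 213. No size below 0.5 was tried, so the simulation does not bear on differences as small as those of the members other than Crabp1.

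The members and lists were chosen with earlier results of these data known. Named genes are the members, up to 4 per list that passed with the largest differences (or else the one with the smallest p), the 5 nearest to Crabp1, its 2 neighbours on each side and Slc39a13; others are said to be described for their role or named after their values were seen. Alternatives were a replicate block, a filter on low values (brighter than the array median in at least 2 arrays), quantile normalization, median centring, eBayes without trend or robust, averaging the rows of a gene, a fit to all rows of the table, and leaving out each array in turn, where the spread comes from the intact group alone and the single array left in the other is taken to share it. Same-numbered arrays deviated from their group means with a correlation of -0.158, so crossed numbers were added as a block after the data were seen. Plots were drawn with matplotlib 3.10.9.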

Additional observations from a re-analysis of the deposited data

How the results depend on the processing

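The difference of Crabp1, a description, ranged from 2.44 to 2.56 log2 units over 13 alternatives. The other 8 genes stayed short of the threshold in every alternative that could be fitted (Rarb and Aldh1a2 fall to the filter on low values). With single arrays left out, Rarg ranged from -0.0225 to 0.0833, Aldh1a1 from -0.138 to 0.125, Aldh1a2 from -0.0301 to 0.124, Slc39a13 from -0.00554 to 0.0898, Rxra from -0.0197 to 0.0631, Ireb2 from -0.0454 to 0.0174 and the adipocyte gene Lep from -0.130 to 0.00549, none past the threshold. Ireb2 was at 0.0135 after quantile normalization.

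The fit and adjustment over all rows gave 1806 genes, 6 other pathway genes and 7 responsive genes, against 3786, 12 and 14. Responsive genes ranged from 9 to 14 with single arrays left out. Whether replicate numbers shared by the groups pair the arrays is not stated, and same-numbered arrays deviated with a correlation of -0.158. The replicate block gave 3364 genes, 12 pathway genes and 13 responsive genes. Crossed replicate numbers as a block, added after seeing the data, gave 5208, 19 and 17. Precision is limited by the small number of arrays, and dim rows such as those of Rarb, Aldh1a2 and Cyp26a1 bound only differences that the arrays could show.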

Other observations

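Of 18 measured aldehyde dehydrogenases other than Aldh1a1, Aldh1a2 and Aldh1a3, limma called 4 higher and 0 lower, which is 22.2% against 17.1% of all genes. An unadjusted p under 0.05 was found for 5 (27.8%, against 25.9% of all genes). The list is near the background, with a median difference of 0.02 log2 units. Aldh8a1 and Aldh1a7, which did not pass, also stand in the list for oxidation and reduction of retinol and retinaldehyde. Aldh7a1, an enzyme of lysine breakdown, rose by 0.93 log2 units (SE 0.08, limma adjusted p = 1.07e-07). Aldh2, the mitochondrial enzyme of acetaldehyde, rose by 0.50 (adjusted p = 1.99e-05), and its dimmer row differed by 0.26. Aldh9a1 rose by 0.32 (adjusted p = 0.00427), but not in the fit over all rows (0.0589) or without WT replicate 2 (0.0612). Aldh18a1, an enzyme of proline synthesis, rose by 0.21 (adjusted p = 0.0397). It did not pass with the replicate block (0.112), without a trend in eBayes (0.0845), over all rows (0.188) or without any 1 of WT replicate 1 (0.0686), WT replicate 2 (0.251) and Zip13KO replicate 2 (0.233). Among 12 measured carriers of the family of Crabp1, Fabp5 alone passed (8.33%, against 17.1% of all genes), and 3 of the 12 passed the filter on low values.

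A DR5 repeat was present in a promoter window of 30 genes besides Rarb, of which 12 were measured. None of the 12 passed in limma, and 1 had an unadjusted p under 0.05, with differences from -0.21 to 0.12 log2 units. Over all genes 17.1% passed and 25.9% had an unadjusted p under 0.05. This list was drawn from the sequences after the values of the 9 genes had been seen, and 6 of the 12 passed the filter on low values.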
